A study of Mus musculus with 18 samples.

Results

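Integrins and laminins are the receptors and the matrix proteins that fasten epithelial cells to their basement membrane. The genes described here were all those of mouse whose probe sets carry a single integrin α or β or laminin α, β or γ symbol in the platform annotation, together with Itgav, Itgax, Itgam, Itgal and Itgae. This rule found 73 of the 45101 probe sets on the array and 34 of its 18193 genes, of which 24 encode integrin subunits and 10 encode laminin chains. A gene was tested where at least 1 of its probe sets exceeded the array median in 3 or more of the 18 arrays, and 23 of the 34 genes met this. The remaining 11 genes (Itga7, Itga8, Itga9, Itga10, Itgal, Itgam, Itgax, Itgb2, Itgb3, Lama2 and Lamc3) were dim throughout, with signals between 0.6 and 122.0.

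Each integrin is a pair of an α and a β subunit, and the pair decides the ligand. In basal keratinocytes α6β4 holds laminin-332 in hemidesmosomes, α3β1 also binds laminin, and α1β1 and α2β1 bind collagen. The αv subunit pairs with several β subunits, of which β6 and β8 are known for binding the latency peptide of TGF-β and releasing the active cytokine. Each laminin is a trimer of an α, a β and a γ chain.

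All mice carried K5tTA, a tetracycline-regulated transactivator under the keratin 5 promoter of basal epithelium, and pTRE-H2B-GFP, which it switches on, from FvB and CD1 parents. Doxycycline in the food at 1 g per kg switched the GFP-tagged histone off for a chase that began at PD18 and ended at PD21, or began at PD22 and ended at PD25 (PD, postnatal day), so all groups had doxycycline. Cells of the skin were sorted by surface CD34 and α6-integrin into bulge cells, from the hair follicle stem cell niche, and non-bulge cells, and bulge cells were separated by retained GFP into those with 0 divisions (undivided) and those with 1 to 2 divisions (divided). The 6 groups (2 ages and 3 fractions) held 3 arrays each, from the same 3 mice within an age and other mice at the other age. The label can be diluted only in cells in which keratin 5 drives it, and each array measured a sorted fraction of 1 mouse.

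Values are log2(signal + 16) of the authors' scaled array signal unless called a signal, and a difference of 1 is a 2-fold change on that scale, which understates changes of dim genes. A gene was called higher or lower where the limma fit over all 11569 tested genes gave a Benjamini-Hochberg adjusted p under 0.05. Keratinocyte markers were bright: Krt5, Krt14, Krt15, Trp63, Cdh1 and Epcam had signals of at least 2622.8 on every array, and 0 of the 6 was called in any comparison between fractions. Cd34, whose protein was a sort marker, had means of 4.52 ± 0.73 in non-bulge, 12.73 ± 0.36 in undivided bulge and 8.93 ± 0.92 in divided bulge cells at PD21 (SD, n = 3). Divided bulge cells came from the same CD34 gate as undivided ones, and their Cd34 RNA was lower at PD21 (-3.80 ± 0.46, SE). At PD25 the Cd34 means were 4.97 ± 0.75, 12.39 ± 0.13 and 12.06 ± 0.71 in the same order. The arrays fell into 2 sets of 9 by their untrimmed mean signal (666.662 to 730.635 and 810.77 to 868.862), with all fractions of a mouse in 1 set. PD21 mouse 3 and PD25 mice 2 and 3 lay in the set of lower mean (set B) and the other 3 mice in the set of higher mean (set A), so the comparisons of ages mix the sets unequally. In sorted fractions, fewer cells of a type and less RNA per cell cannot be told apart.

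Of the 23 tested genes, 7 were called in at least 1 comparison (Itga1, Itga2, Itgb4, Itgb6, Itgb8, Lamb1 and Lamb3) and 16 in none. The share of all genes called in at least 1 comparison is not given here, so this count only lists the genes. Shares for single comparisons follow. At PD21 undivided bulge cells had more RNA than non-bulge cells of Itga1, Itgb6, Itgb8, Lamb1, Itgb4 and Lamb3, so 6 of 23 were higher and 0 lower, against 6.12% of all genes called higher and 4.93% lower. Their log2 differences ran from 0.88 (Lamb3) to 3.20 (Itga1), and the median of the 23 genes was 0.27, beside -0.05 over all genes. At PD25 the undivided bulge was higher than non-bulge in 5 of 23 (Itga1, Itga2, Itgb6, Itgb8 and Lamb1) and lower in 0, against 5.71% of all genes higher and 4.83% lower. The divided bulge at PD25 was higher in 4 of 23 (Itga1, Itgb6, Itgb8 and Lamb1) and lower in 0, against 5.62% higher and 3.25% lower. At PD21 the divided bulge was called different from non-bulge in 0 of 23, against 0.182% of all genes higher and 0% lower. At an unadjusted p under 0.05 in limma there were also 0 of 23, against 487 of all 11569 genes. With each mouse as a block, Itgb1 and Lama5 were called as well at PD21 in the undivided bulge (8 of 23 higher), Lamc1 was called lower there at PD25, and Lama1 was called in divided against undivided bulge at PD21. The shares of all genes given here are from the fit without the block. The comparisons with non-bulge cells share the non-bulge arrays of their age. Centring the arrays on their medians moved the median of all genes in the undivided comparison at PD21 from -0.05 to 0.12 and the share of its calls that were higher from 55.4% to 68.1%.

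**Figure D1:**
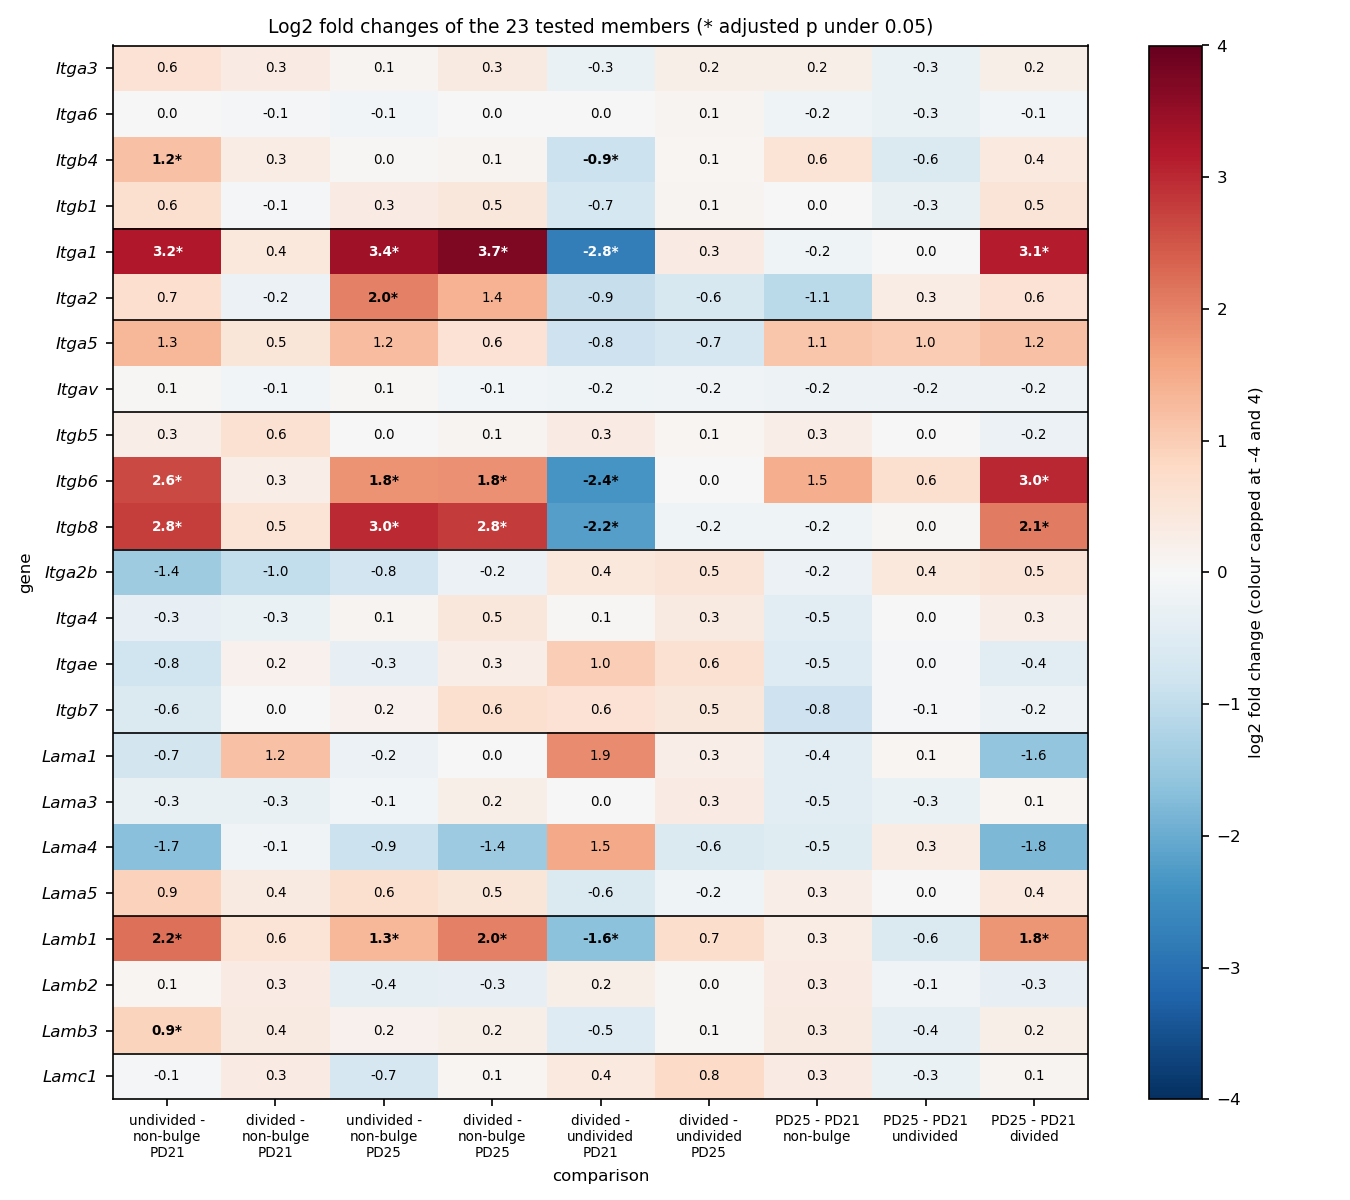
Log2 fold change (colour and number) of each tested integrin and laminin gene (rows, in groups by role) in 9 comparisons between groups of 3 mice (columns); asterisks mark limma adjusted p under 0.05. Itga1, Itgb6, Itgb8 and Lamb1 carry an asterisk in the same 5 columns, and Itga6 and Itgav lie near 0 in every column.

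Itga1 encodes the α1 subunit, which pairs with β1 to bind collagens, among them type IV collagen of basement membranes. At PD21 its 3 mice had 5.81, 5.24 and 5.18 in non-bulge cells, 8.98, 8.06 and 8.79 in the undivided bulge, and 5.60, 5.27 and 6.66 in the divided bulge. At PD25 they had 4.64, 5.84 and 5.22 in non-bulge cells, 8.35, 9.23 and 8.31 in the undivided bulge, and 9.45, 8.71 and 8.75 in the divided bulge. The divided bulge thus lay with non-bulge cells at PD21 and with the undivided bulge at PD25, and the undivided bulge lay above non-bulge in every mouse at both ages. The undivided bulge exceeded non-bulge by 3.20 ± 0.52 at PD21 (SE; limma adjusted p = 0.000126) and by 3.40 ± 0.52 at PD25 (adjusted p = 5.9e-05). The non-bulge signals at PD21 (40, 21.8 and 20.2) lay below the array medians, so these sizes depend on the constant added: they were 3.79 and 4.17 with 1 added and 2.28 and 2.36 with 64 added. Itga1 exceeded the array median in 9 arrays, those of the undivided bulge at both ages and of the divided bulge at PD25, so it passed the filter through the groups where it was high. The divided bulge differed from the undivided by -2.77 ± 0.52 at PD21 (adjusted p = 0.00101), lower in 3 of 3 mice, and by 0.34 ± 0.52 at PD25 (95% interval -0.74 to 1.42). A second probe set of Itga1 that passed the filter gave 2.74 and 3.17 for the undivided bulge against non-bulge at PD21 and PD25, and was also called in both. It too exceeded the array median in only 9 arrays and was read from the same RNA, so it is no independent support.

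Itgb6 encodes the β6 subunit, which pairs only with αv. Its PD21 values were 6.40, 7.68 and 7.56 in non-bulge cells, 9.51, 10.57 and 9.44 in the undivided bulge, and 7.12, 7.92 and 7.40 in the divided bulge. Its PD25 values were 9.17, 8.44 and 8.39 in non-bulge cells, 10.80, 10.81 and 9.79 in the undivided bulge, and 10.23, 10.71 and 10.55 in the divided bulge. Every undivided value was above every non-bulge value of its age, and the PD25 non-bulge values were all above the PD21 ones. The excess of the undivided bulge over non-bulge was 2.63 ± 0.41 at PD21 (6.17-fold; limma adjusted p = 7.26e-05) and 1.80 ± 0.41 at PD25 (adjusted p = 0.00387), and that of the divided bulge at PD25 was 1.83 ± 0.41 (adjusted p = 0.00418). In non-bulge cells the difference of 1.45 ± 0.41 between PD25 and PD21 did not pass (adjusted p = 0.855). A second probe set gave 3.14 and 2.94 for the undivided bulge against non-bulge at PD21 and PD25.

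Itgb8 encodes the β8 subunit, the other partner of αv known for releasing TGF-β. Non-bulge cells had 6.68, 6.85 and 7.90 at PD21 and 6.68, 7.41 and 6.82 at PD25. The undivided bulge had 9.52, 10.12 and 10.06 at PD21 and lay between 9.83 and 10.02 at PD25, and the divided bulge had 6.66, 8.14 and 8.27 at PD21 and 10.03, 9.35 and 9.91 at PD25. The undivided bulge was level between the ages, while the divided bulge at PD21 overlapped non-bulge cells and at PD25 overlapped the undivided bulge. Against non-bulge cells the undivided bulge was higher by 2.76 ± 0.44 at PD21 (6.75-fold; limma adjusted p = 8.63e-05) and 2.98 ± 0.44 at PD25 (7.90-fold; adjusted p = 3.14e-05), and the divided bulge at PD25 by 2.80 ± 0.44 (adjusted p = 0.000105).

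Lamb1 encodes the laminin β1 chain, found with α5 and γ1 in laminin-511. Non-bulge cells had 9.21, 8.12 and 9.21 at PD21 and 8.91, 9.26 and 9.28 at PD25. The undivided bulge had 11.25, 10.75 and 11.15 at PD21 and 10.57, 10.87 and 9.97 at PD25, and the divided bulge had 9.51, 9.03 and 9.68 at PD21 and 11.39, 11.11 and 11.02 at PD25. At PD25 the 3 divided values all lay above the 3 undivided ones, a difference of 0.70 ± 0.30 that did not pass (limma adjusted p = 0.821). The undivided bulge exceeded non-bulge by 2.21 ± 0.30 at PD21 (4.61-fold; adjusted p = 1.48e-05) and 1.32 ± 0.30 at PD25 (adjusted p = 0.00408), and the divided bulge at PD25 by 2.02 ± 0.30 (adjusted p = 6.51e-05). All 3 passing probe sets of Lamb1 were higher in the undivided bulge at both ages, between 1.16 and 2.21 at PD21 and between 1.32 and 2.01 at PD25, and 2 of the 3 were called at each age.

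**Figure D2:**
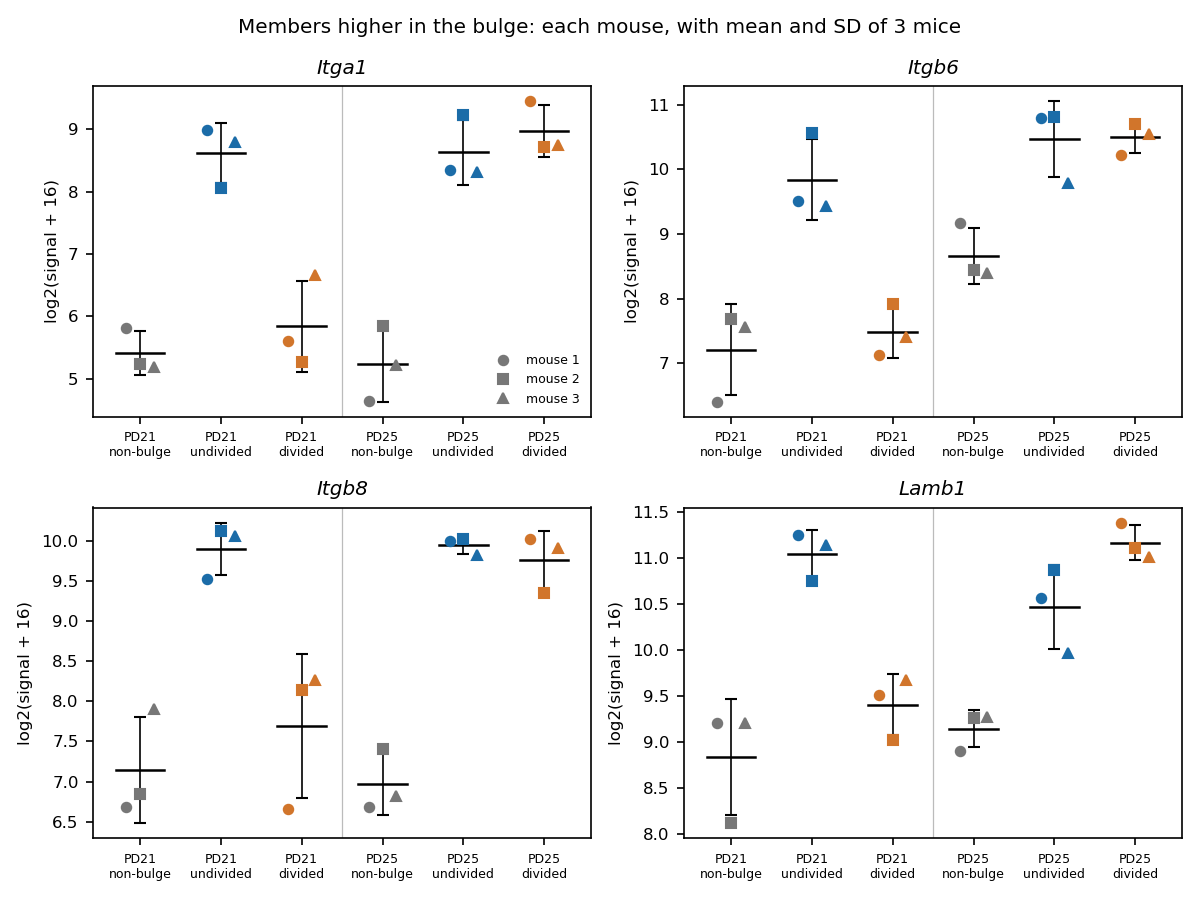
Log2(signal + 16) of Itga1, Itgb6, Itgb8 and Lamb1 (vertical axes) in each of the 6 groups (horizontal axes); symbols are mice, black lines the mean and bars the SD of 3 mice. The divided bulge (orange) sits near the non-bulge cells (grey) at PD21 and near the undivided bulge (blue) at PD25.

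The sequence before the start of these 4 genes is shown because they were called in the same 5 comparisons between groups. Each line holds the 250 bases before a RefSeq start (build GRCm38.p6), read 5′ to 3′ on the gene's own strand: Itga1 at chr13:115101965-115102214 (minus strand), Itgb6 at chr2:60722604-60722853 (minus), Itgb8 at chr12:119238277-119238526 (minus) and Lamb1 at chr12:31265043-31265292 (plus). For Itgb6 the table held another start, which is not printed and whose window held none of the marked letters. Capitals mark matches, on either strand, to TGTGG (a RUNX core), GGAAA (NFAT) or CAGAC (SMAD).
Itga1: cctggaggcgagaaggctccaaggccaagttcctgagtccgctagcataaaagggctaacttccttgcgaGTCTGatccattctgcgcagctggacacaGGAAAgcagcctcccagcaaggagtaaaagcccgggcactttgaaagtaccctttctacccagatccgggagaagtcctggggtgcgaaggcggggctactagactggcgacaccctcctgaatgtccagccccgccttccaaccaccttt
Itgb6: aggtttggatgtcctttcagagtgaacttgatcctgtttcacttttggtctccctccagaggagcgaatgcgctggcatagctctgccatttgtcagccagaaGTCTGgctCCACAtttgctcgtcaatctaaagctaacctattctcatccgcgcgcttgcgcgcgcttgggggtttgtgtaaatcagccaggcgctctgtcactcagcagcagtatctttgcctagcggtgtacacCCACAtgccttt
Itgb8: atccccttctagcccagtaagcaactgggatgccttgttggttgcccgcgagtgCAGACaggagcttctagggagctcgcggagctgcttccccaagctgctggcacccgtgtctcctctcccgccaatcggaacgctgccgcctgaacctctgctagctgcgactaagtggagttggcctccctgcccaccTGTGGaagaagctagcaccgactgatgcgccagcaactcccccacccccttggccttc
Lamb1: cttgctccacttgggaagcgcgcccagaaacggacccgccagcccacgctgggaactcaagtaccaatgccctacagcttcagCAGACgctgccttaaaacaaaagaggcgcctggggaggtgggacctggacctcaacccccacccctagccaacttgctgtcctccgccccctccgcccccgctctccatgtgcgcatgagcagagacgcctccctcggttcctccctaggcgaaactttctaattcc

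CAGAC or its reverse complement GTCTG stood in the 4 printed windows, and in 42.2% of the 32851 windows of the same length before all starts in the table. TGTGG stood before Itgb6 and Itgb8 (49.3% of all windows) and GGAAA before Itga1 (55.6%). TAATTA (LHX), ACAAAG (SOX) and TGANTCA (AP-1), also searched on both strands, stood in none of the 4, and in 4.84%, 16.5% and 6.75% of all windows. These short letters were chosen after longer forms gave no match, no match overlapped another, and a match is a description of the letters only. The windows of Itga1, Itgb8 and Lamb1 were 57.6%, 62.4% and 62.0% G and C and that of Itgb6 was 52.0%, beside a median of 52.4% over all windows. Of the 34 genes, 22 had a start in the table.

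Among the laminin-binding integrin subunits, Itga6 was level in all groups. Itga6 encodes the α6 subunit, whose protein was one of the sort markers. Its non-bulge values were 13.10, 13.41 and 12.93 at PD21, against 13.27, 13.30 and 12.80 in the undivided bulge and 13.14, 13.34 and 12.80 in the divided bulge. At PD25 the non-bulge values were 13.44, 12.61 and 12.83, the undivided 13.29, 12.94 and 12.35 and the divided 13.27, 12.82 and 12.83, and the groups overlapped throughout. Its log2 differences lay between -0.26 and 0.14 in the 10 planned comparisons, with 95% intervals that stayed between -0.85 and 0.98, and its lowest adjusted p in limma was 0.903. A second probe set of Itga6 gave -0.28 for the undivided bulge against non-bulge at PD21 and 0.04 at PD25, neither called.

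Itgb4 encodes the β4 partner of α6 in hemidesmosomes and was called at PD21. It had 10.25, 9.75 and 10.28 in non-bulge cells, 11.49, 11.07 and 11.24 in the undivided bulge and 10.66, 10.33 and 10.21 in the divided bulge. The 3 undivided values stood above the other 6. The undivided bulge exceeded non-bulge by 1.18 ± 0.26 (2.26-fold; limma adjusted p = 0.00288) and the divided bulge lay 0.87 lower than the undivided on the log2 scale (-0.87 ± 0.26; adjusted p = 0.0377). That second call was lost without undivided mouse 1 (-0.76), undivided mouse 3 (-0.88), divided mouse 2 (-0.83) or divided mouse 3 (-0.77), at adjusted p between 0.0802 and 0.16. At PD25 the undivided bulge was 0.03 ± 0.26 from non-bulge (95% interval -0.50 to 0.57). This contrast shifted by -1.14 ± 0.37 from PD21 to PD25, which missed the threshold (limma unadjusted p = 0.00479, and 0 of 11569 genes were called in that comparison).

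Itgb1 and Itga3, the subunits of the laminin receptor α3β1, were not called. Itgb1, whose product is the β partner of α1, α2, α3 and others, had 10.89, 10.77 and 11.28 in non-bulge cells, 11.93, 11.40 and 11.51 in the undivided bulge and 10.86, 10.74 and 11.15 in the divided bulge at PD21. The undivided values lay above the others without overlap, and the differences of 0.64 ± 0.24 from non-bulge (limma adjusted p = 0.088) and -0.70 ± 0.24 of divided from undivided (adjusted p = 0.0691) missed the threshold. Both passed when each mouse was a block (adjusted p = 0.0416 and 0.0302). Itga3 had log2 differences between -0.26 and 0.58 in all 10 comparisons by its brightest probe set, with a lowest adjusted p of 0.283. Its 3 passing probe sets gave 0.13 to 0.58 for the undivided bulge against non-bulge at PD21 and -0.40 to 0.10 at PD25, none called.

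Itga2, the other collagen-binding α subunit with a tested probe set, was called in 1 comparison. It lies beside Itga1 on chromosome 13, with no protein-coding gene between them in the RefSeq table. At PD25 it had 7.62, 6.05 and 7.65 in non-bulge cells, 8.88, 9.06 and 9.46 in the undivided bulge and 7.41, 8.69 and 9.39 in the divided bulge. Divided mouse 1 lay among the non-bulge mice and the other divided mice near the undivided ones. The undivided bulge was higher than non-bulge by 2.03 ± 0.51 (4.07-fold; limma adjusted p = 0.00897), and by 1.496 without non-bulge mouse 2, where the call was lost (adjusted p = 0.0745). At PD21 the same difference was 0.67 ± 0.51 (adjusted p = 0.491), and the change between the ages, 1.35 ± 0.72, did not pass (unadjusted p = 0.0726).

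The αv subunit itself was bright, and level by its brightest probe set. Itgav had means between 12.51 and 12.86 in the 6 groups, its differences lay between -0.20 and 0.06 with 95% intervals between -0.91 and 0.92, and its lowest adjusted p was 0.848. Its 5 passing probe sets spread more widely, with none called. For the undivided bulge against non-bulge they gave -0.72 to 0.26 at PD21 and -0.60 to 0.06 at PD25. Itgb5, another β partner of αv, had means between 9.40 and 10.01 and a lowest adjusted p of 0.619. The 4 passing probe sets of Itgb5 gave 0.27 to 0.83 for the undivided bulge against non-bulge at PD21 and -0.65 to 0.03 at PD25, none called. Of the β partners of αv, Itgb6 and Itgb8 were thus called in 5 comparisons between groups each and Itgb5 and Itgb1 in 0, while Itgb3 was too dim to test (signals of 1.1 to 50.3). Itga5, the α subunit of the fibronectin receptor, was dim, with a median signal of 57.5, and had a difference of 1.33 for the undivided bulge at PD21 that did not pass (adjusted p = 0.34).

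**Figure D3:**
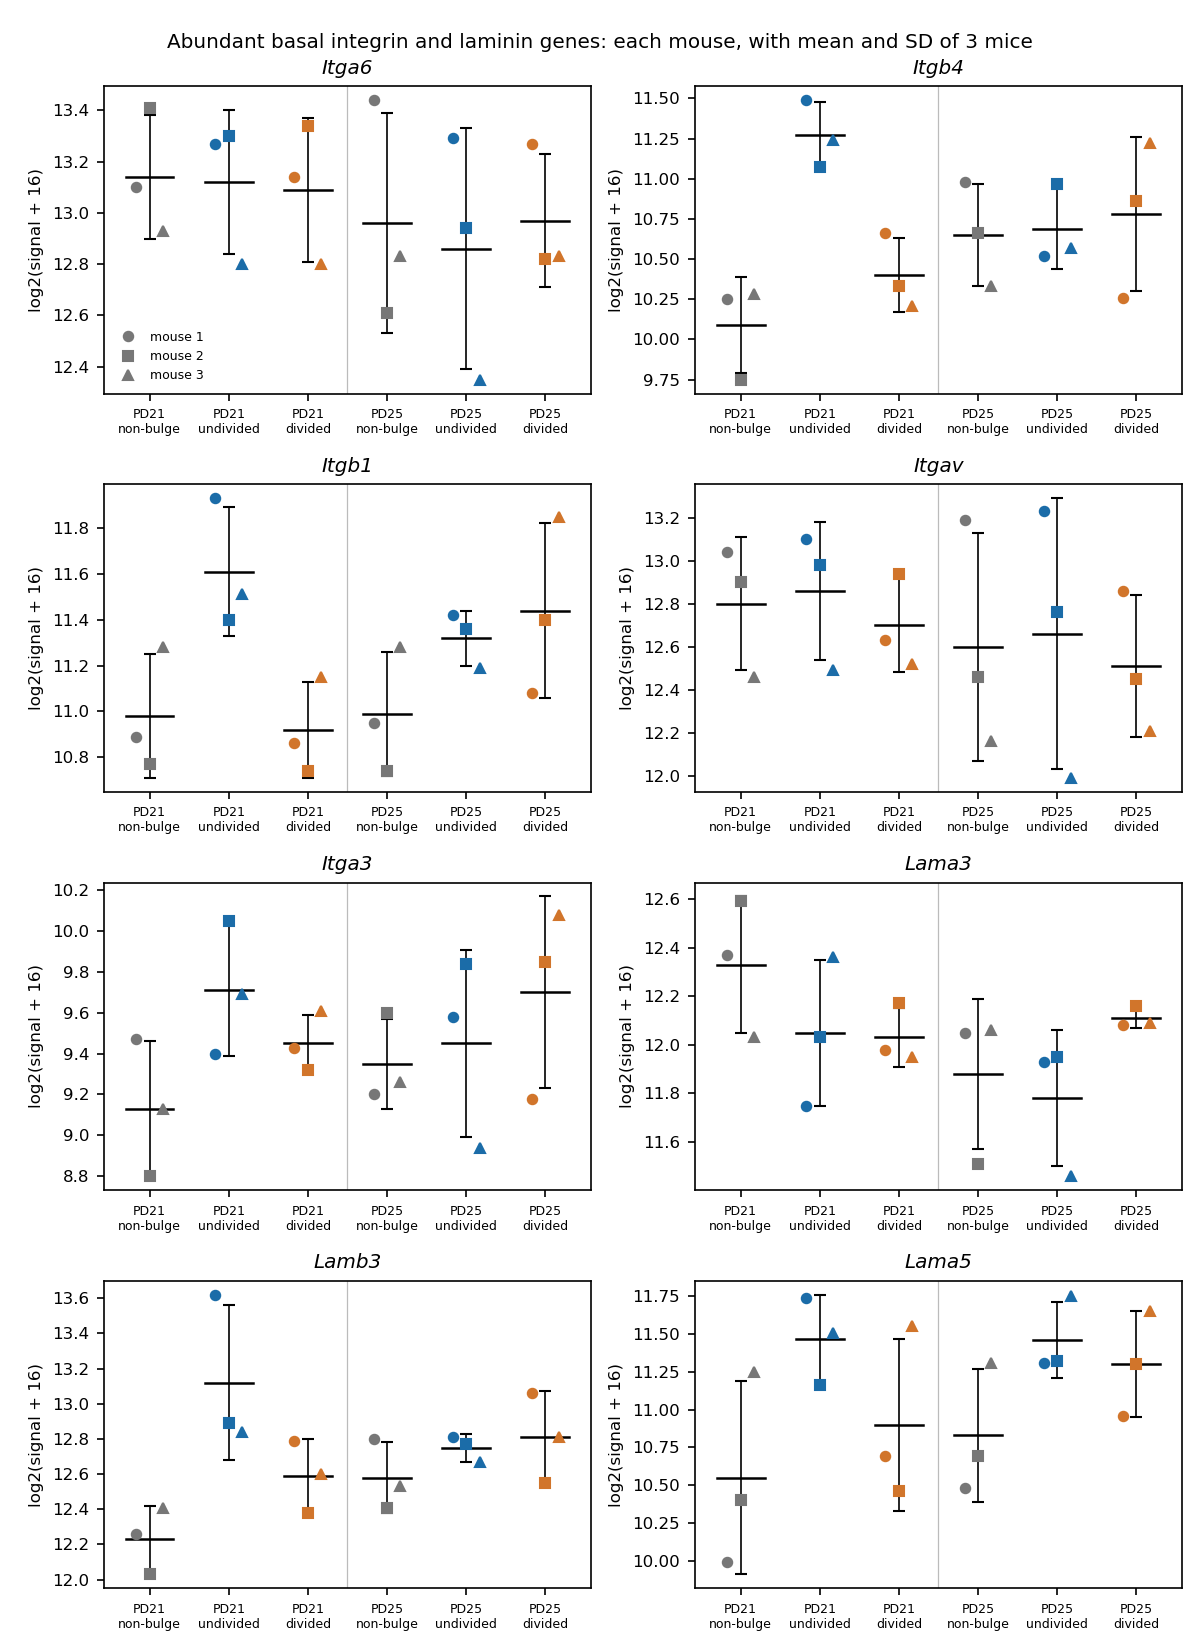
Log2(signal + 16) of 8 bright members (vertical axes, each with its own range) in the 6 groups; symbols are mice, black lines means and bars SD of 3 mice. Itga6 and Itgav overlap in all groups, while the undivided bulge at PD21 stands above the non-bulge cells for Itgb4, Itgb1 and Lamb3.

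Among the laminin chains other than Lamb1, Lamb3, the β chain of laminin-332, was called at PD21. It had 12.26, 12.03 and 12.41 in non-bulge cells, 13.62, 12.89 and 12.84 in the undivided bulge and 12.79, 12.38 and 12.60 in the divided bulge. The undivided mice stood above the non-bulge ones, mouse 1 farthest. The difference of 0.88 ± 0.24 (1.85-fold; limma adjusted p = 0.018) was 0.63 without undivided mouse 1 (adjusted p = 0.148), 0.78 without non-bulge mouse 2 (0.0879) and 0.90 without non-bulge mouse 1 (0.0508), and was not called in any of these. At PD25 it was 0.17 ± 0.24 (95% interval -0.34 to 0.68). Lama3, the α chain of the same trimer, had differences between -0.46 and 0.35 and was not called, and its second, dimmer probe set could differ in sign, as at 0.45 for the divided bulge against non-bulge at PD21 where the brighter one gave -0.30.

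The chains that join β1 in laminin-511 were not called. Lama5, the α5 chain, had 9.99, 10.40 and 11.25 in non-bulge cells and 11.74, 11.16 and 11.51 in the undivided bulge at PD21, higher in 3 of 3 mice while the groups overlapped. Its difference of 0.92 ± 0.32 missed the threshold (limma adjusted p = 0.0637), and with mice as a block it passed (adjusted p = 0.00667). Lamc1, the γ1 chain, was -0.08 ± 0.26 from non-bulge in the undivided bulge at PD21 and -0.68 ± 0.26 at PD25 (adjusted p = 0.116, and 0.0497 with mice as a block). A second, also bright, probe set of Lamc1 gave -0.69 at PD21 and -0.45 at PD25, neither called. Lama1 and Lama4 were dim (median signals of 51.0 and 56.25). Lama1 at PD21 had 126.8, 176.7 and 217.0 as signals in the divided bulge against 32.8, 38.8 and 29.7 in the undivided, a difference of 1.90 ± 0.60 that missed the threshold (limma adjusted p = 0.0521) and passed with mice as a block (0.0309). Lamb2 had differences between -0.37 and 0.33 and was not called.

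The 8 leukocyte and platelet integrin genes (Itga2b, Itga4, Itgae, Itgal, Itgam, Itgax, Itgb2 and Itgb7) were dim. Their median signals lay between 11.1 and 82.1, the highest single signal was 195.4, and 4 of them were tested. None of their 40 values in the 10 comparisons was called, with a lowest adjusted p of 0.345. Ptprc, the pan-leukocyte marker, was also too dim to test, with signals of 5.1 to 203.2 and its highest in PD21 non-bulge mouse 1. The summed signal of the 14 leukocyte markers ran from 827.5 to 5442.1 in non-bulge and from 833.1 to 2585.2 in bulge fractions.

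Divided and undivided bulge cells differed at PD21, where 5 of the 23 genes were lower in the divided bulge (Itga1, Itgb6, Itgb8, Lamb1 and Itgb4) and 0 higher, against 4.37% of all genes lower and 3.91% higher. Within each of the 3 mice, the log2 difference of divided from undivided was -2.39, -2.65 and -2.04 for Itgb6, -2.86, -1.98 and -1.79 for Itgb8, and -1.74, -1.72 and -1.47 for Lamb1. The fitted differences were -2.36 ± 0.41 for Itgb6 (limma adjusted p = 0.000447), -2.21 ± 0.44 for Itgb8 (adjusted p = 0.0015) and -1.64 ± 0.30 for Lamb1 (adjusted p = 0.000806). At PD25 the same comparison called 0 of 23, and 0% of all genes, with 2 of 23 and 635 of 11569 at an unadjusted p under 0.05 in limma. The PD25 differences were 0.03 ± 0.41 for Itgb6 (95% interval -0.82 to 0.88) and -0.19 ± 0.44 for Itgb8 (-1.09 to 0.72). With mice as a block the PD21 count was 8, with Itgb1, Lamb3 and Lama1 added, of which Lama1 was higher. The shares of all genes given here are from the fit without the block.

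The change of this division effect between the ages was called for 3 of 23 genes, all more positive at PD25, against 0.813% of all genes more positive and 0.372% more negative. It was 3.11 ± 0.74 for Itga1 (limma adjusted p = 0.0356), 2.39 ± 0.58 for Itgb6 (adjusted p = 0.0395) and 2.34 ± 0.43 for Lamb1 (adjusted p = 0.00701), and 2.03 ± 0.62 for Itgb8 (adjusted p = 0.103, and 0.0299 with mice as a block). With every probe set fitted on its own, the second one of Itga1 gave 2.75 and was not called (limma adjusted p = 0.187). That of Itgb6 gave 2.78 and was called (adjusted p = 0.0286). The dimmer ones of Lamb1 gave 2.64 (adjusted p = 0.0869) and 0.83 (adjusted p = 0.769), neither called. By its brightest probe set Lamb1 kept its call without any 1 array, and lost it with the mean of its probe sets (1.94, adjusted p = 0.0551). Those of Itga1 and Itgb6 were lost without any of 8 of the 12 bulge arrays each, with values between 2.82 and 3.22 for Itga1 and between 2.03 and 2.56 for Itgb6 at adjusted p from 0.0546 to 0.117. For Itga1 these were undivided mice 1 and 3 and divided mice 1 and 2 at PD21, and undivided mice 1 and 3 and divided mice 1 and 3 at PD25. For Itgb6 they were undivided mice 1 and 2 and divided mouse 1 at PD21, and undivided mice 2 and 3 and divided mice 1, 2 and 3 at PD25. Within set A the 3 values were 4.19, 1.94 and 2.54 and within set B 2.09, 2.37 and 2.12 (Itga1, Itgb6, Lamb1), with none called in either set. Within set A each PD25 fraction, and within set B each PD21 fraction, is 1 array, which is assumed to vary like the other groups.

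**Figure D4:**
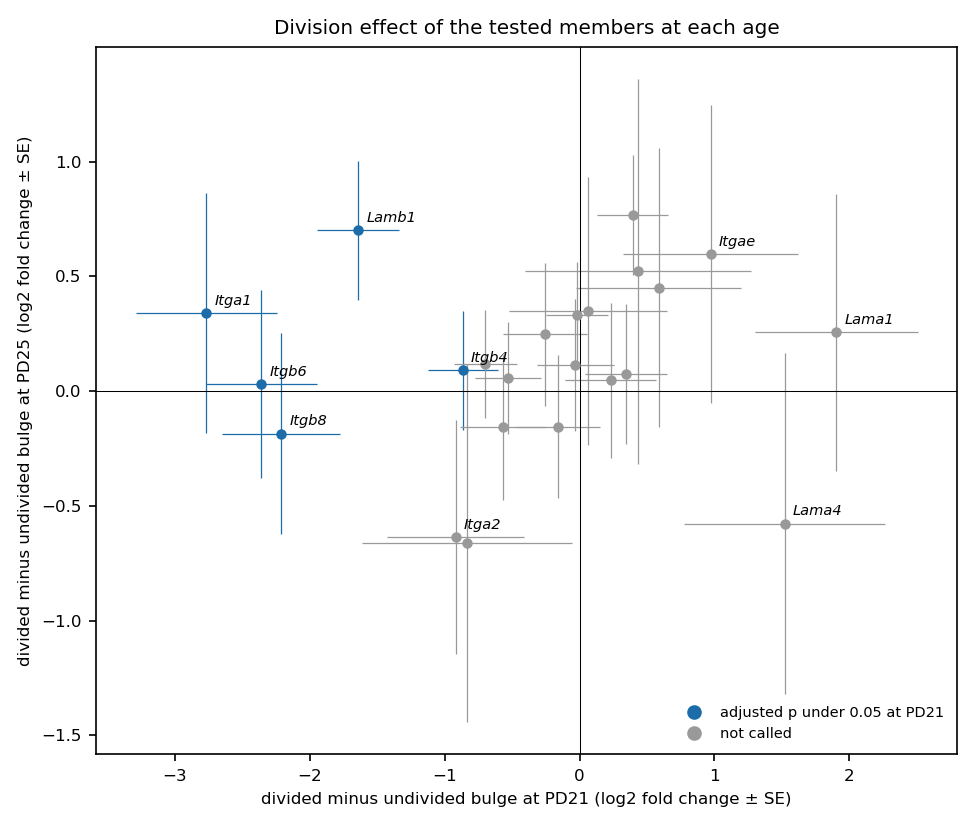
Divided minus undivided bulge at PD21 (horizontal axis) against the same difference at PD25 (vertical axis), log2 fold change ± SE, for the 23 tested genes; blue marks adjusted p under 0.05 at PD21. Itga1, Itgb6, Itgb8 and Lamb1 lie between -2.77 and -1.64 on the horizontal axis and between -0.19 and 0.70 on the vertical axis.

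Between the ages, the divided bulge was higher at PD25 in 4 of 23 genes (Itga1, Itgb6, Itgb8 and Lamb1) and lower in 0, against 4.37% of all genes higher and 3.47% lower. The differences were 3.13 ± 0.52 for Itga1 (limma adjusted p = 0.000396), 3.02 ± 0.41 for Itgb6 (adjusted p = 4.36e-05), 2.07 ± 0.44 for Itgb8 (adjusted p = 0.00333) and 1.77 ± 0.30 for Lamb1 (adjusted p = 0.000491). With the array set as a block they were 3.03, 3.07, 1.95 and 1.71 and all called. Within set A, where the PD25 divided bulge is 1 array, they were 4.02, 2.71, 2.63 and 2.12, and within set B, where the PD21 divided bulge is 1 array, they were 2.07, 3.23, 1.36 and 1.38. The lone array was again assumed to vary like the other groups, and on that assumption all 4 were called in set A and Itgb6 in set B. In the undivided bulge 0 of 23 were called between the ages, against 0.0605% of all genes higher and 0.0346% lower. At an unadjusted p under 0.05 in limma there was 1 of 23, against 929 of all 11569 genes. In non-bulge cells 0 of 23 were called, against 0.0259% of all genes higher and 0.0173% lower. At an unadjusted p under 0.05 in limma there were 3 of 23, against 511 of all 11569 genes. The excess of the divided bulge over non-bulge grew between the ages for 1 of 23 (Itga1, 3.30 ± 0.74, limma adjusted p = 0.0238), against 0.916% of all genes more positive and 0.717% more negative. Under the paired fit, with each mouse as a block, Itgb8 (2.25, adjusted p = 0.0156) and Lamb1 (1.46, adjusted p = 0.0239) were called as well. The Itga1 call, from the fit without the block, was lost when any of 5 single arrays was left out (3.01 to 3.18, limma adjusted p between 0.057 and 0.0735). They were PD21 non-bulge mouse 1, PD21 divided mice 1 and 2, PD25 non-bulge mouse 1 and PD25 divided mouse 1.

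Bulge markers other than the genes above moved with these comparisons, and their part in the results was not tested. Lhx2, a transcription factor of the bulge, was higher than non-bulge by 4.11 ± 0.25 in the undivided and 1.96 ± 0.25 in the divided bulge at PD21, and by 4.51 ± 0.25 in the divided bulge at PD25. The summed signal of 6 bulge markers was 40238.2 to 101158 in the undivided and 25274.2 to 58362.8 in the divided bulge at PD21, beside 20993.1 to 42931.5 in non-bulge cells. Krt15, also a keratinocyte marker, weighs heavily in these sums, with signals of 19304.1 to 76275.9 over all arrays. Gene by gene, 5 of the 6 were called higher than non-bulge in the undivided bulge at PD21 (6.12% of all genes). In the divided bulge at PD21 2 of the 6 were called higher (0.182% of all genes). The 7 dermal fibroblast markers summed to 286.5 to 562.4 in non-bulge, 2209.9 to 3305.3 in undivided bulge and 813.7 to 1811.9 in divided bulge cells at PD21. At PD25 they summed to 332.8 to 666.3, 1243.7 to 2195.3 and 1912.1 to 3931.1. Of the 4 tested, Col1a1 and Col6a1 were higher in the undivided bulge at PD21 by 4.09 ± 0.55 and 3.65 ± 0.58, and Col1a2 (-0.91 ± 0.68) and Col3a1 (-0.38 ± 0.65) were not called. In divided against undivided bulge at PD21 Col3a1 was higher (2.77 ± 0.65) and Col6a1 lower (-3.15 ± 0.58). Against non-bulge cells 1 of the 4 was called higher in the divided bulge at PD21 (0.182% of all genes). At PD25 2 of the 4 were called higher in the undivided bulge (5.71% of all genes) and 4 of the 4 in the divided bulge (5.62%). Pdgfra, Lum and Dcn, which mark fibroblasts, were too dim to test, with highest signals of 53.7, 29.3 and 110.5. The melanocyte markers Mitf (2.27 ± 0.47 in the undivided bulge at PD21) and, at PD25, Dct were higher in the bulge, while Tyr, Tyrp1, Mlana and Kit stayed at or under a signal of 96.4. Of the 7 melanocyte markers 3 were tested (Dct, Pmel and Mitf). In the undivided bulge 1 of the 3 was called higher than non-bulge at PD21 (6.12% of all genes) and 2 at PD25 (5.71%). None of the 6 endothelial markers passed the filter.

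TGF-β ligands, the proteins that bind latent TGF-β and the TGF-β receptors were described from a list of 10 genes, 9 of them tested. At PD21 5 were higher in the undivided bulge than in non-bulge and 1 lower, against 6.12% of all genes higher and 4.93% lower, with a median of 1.13 beside -0.05 over all genes. Ltbp1 and Ltbp2, of the family that tethers latent TGF-β to the matrix, differed most. Ltbp1 had 8.76, 7.62 and 8.55 in non-bulge, 12.63, 11.73 and 12.24 in undivided bulge and 10.01, 8.93 and 11.06 in divided bulge cells, and the 3 groups did not overlap. Its excess in the undivided bulge was 3.89 ± 0.42 (limma adjusted p = 6.08e-07), and that of Ltbp2 5.46 ± 0.63 (adjusted p = 1.49e-06), against non-bulge signals of 15.9, 1.5 and 20.9, so that its size depends on the 16 added. Tgfb3, a ligand, was higher by 3.10 ± 0.55, the receptor Tgfbr1 by 1.74 ± 0.35 and Ltbp3 by 1.13 ± 0.32. The other receptor, Tgfbr2, went the other way, at -1.73 ± 0.29 (adjusted p = 0.000201). Its mice had 10.52, 10.45 and 11.03 in non-bulge, 8.50, 9.01 and 9.29 in undivided bulge, and 10.53, 10.71 and 10.61 in divided bulge cells. The counts at PD25 were 5 higher and 1 lower in the undivided and in the divided bulge alike, against 5.71% and 5.62% of all genes higher and 4.83% and 3.25% lower.

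Of 10 tested integrin ligands other than laminin, 5 were higher and 1 lower in the undivided bulge at PD21, against 6.12% and 4.93% of all genes. Egfl6 and Npnt are matrix proteins with an RGD motif, and Npnt (nephronectin) is a ligand of α8β1. Egfl6 had 8.22, 9.03 and 8.15 in non-bulge, 11.84, 11.44 and 12.16 in undivided bulge and 8.0, 7.81 and 9.12 in divided bulge cells at PD21. Its undivided excess was 3.35 ± 0.34 at PD21 (limma adjusted p = 1.93e-07) and 3.96 ± 0.34 at PD25 (adjusted p = 1.91e-08). Npnt was higher by 1.73 ± 0.42, Fbn2 (dim in non-bulge, with signals of 7.9 to 11.7) by 1.81 ± 0.58, Postn by 1.44 ± 0.38 and Thbs1 by 1.28 ± 0.31 at PD21, and Icam1, a ligand of leukocyte integrins, was at -1.24 ± 0.33. Itga8, the α subunit that binds Npnt, was dim in all sorted cells, with signals of 0.6 to 47.5.

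Among 17 tested activators and adaptors that link integrins to actin, 5 were higher and 0 lower in the undivided bulge at PD21, where 6.12% of all genes were higher and 4.93% lower. They were the actin crosslinker Actn1 (2.91 ± 0.30, limma adjusted p = 3.44e-07), the integrin activator Fermt2 (2.69 ± 0.56), the focal adhesion protein Zyx (1.92 ± 0.38) and the tensins Tns3 (1.44 ± 0.31) and Tns1 (1.21 ± 0.24). Tln1, the main talin, and Ilk were not called, at 0.21 ± 0.26 and 0.16 ± 0.25. In the divided bulge 5 of the 17 were lower than in the undivided at PD21 (4.37% of all genes), and 6 were higher than non-bulge at PD25 (5.62% of all genes).

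**Figure D5:**
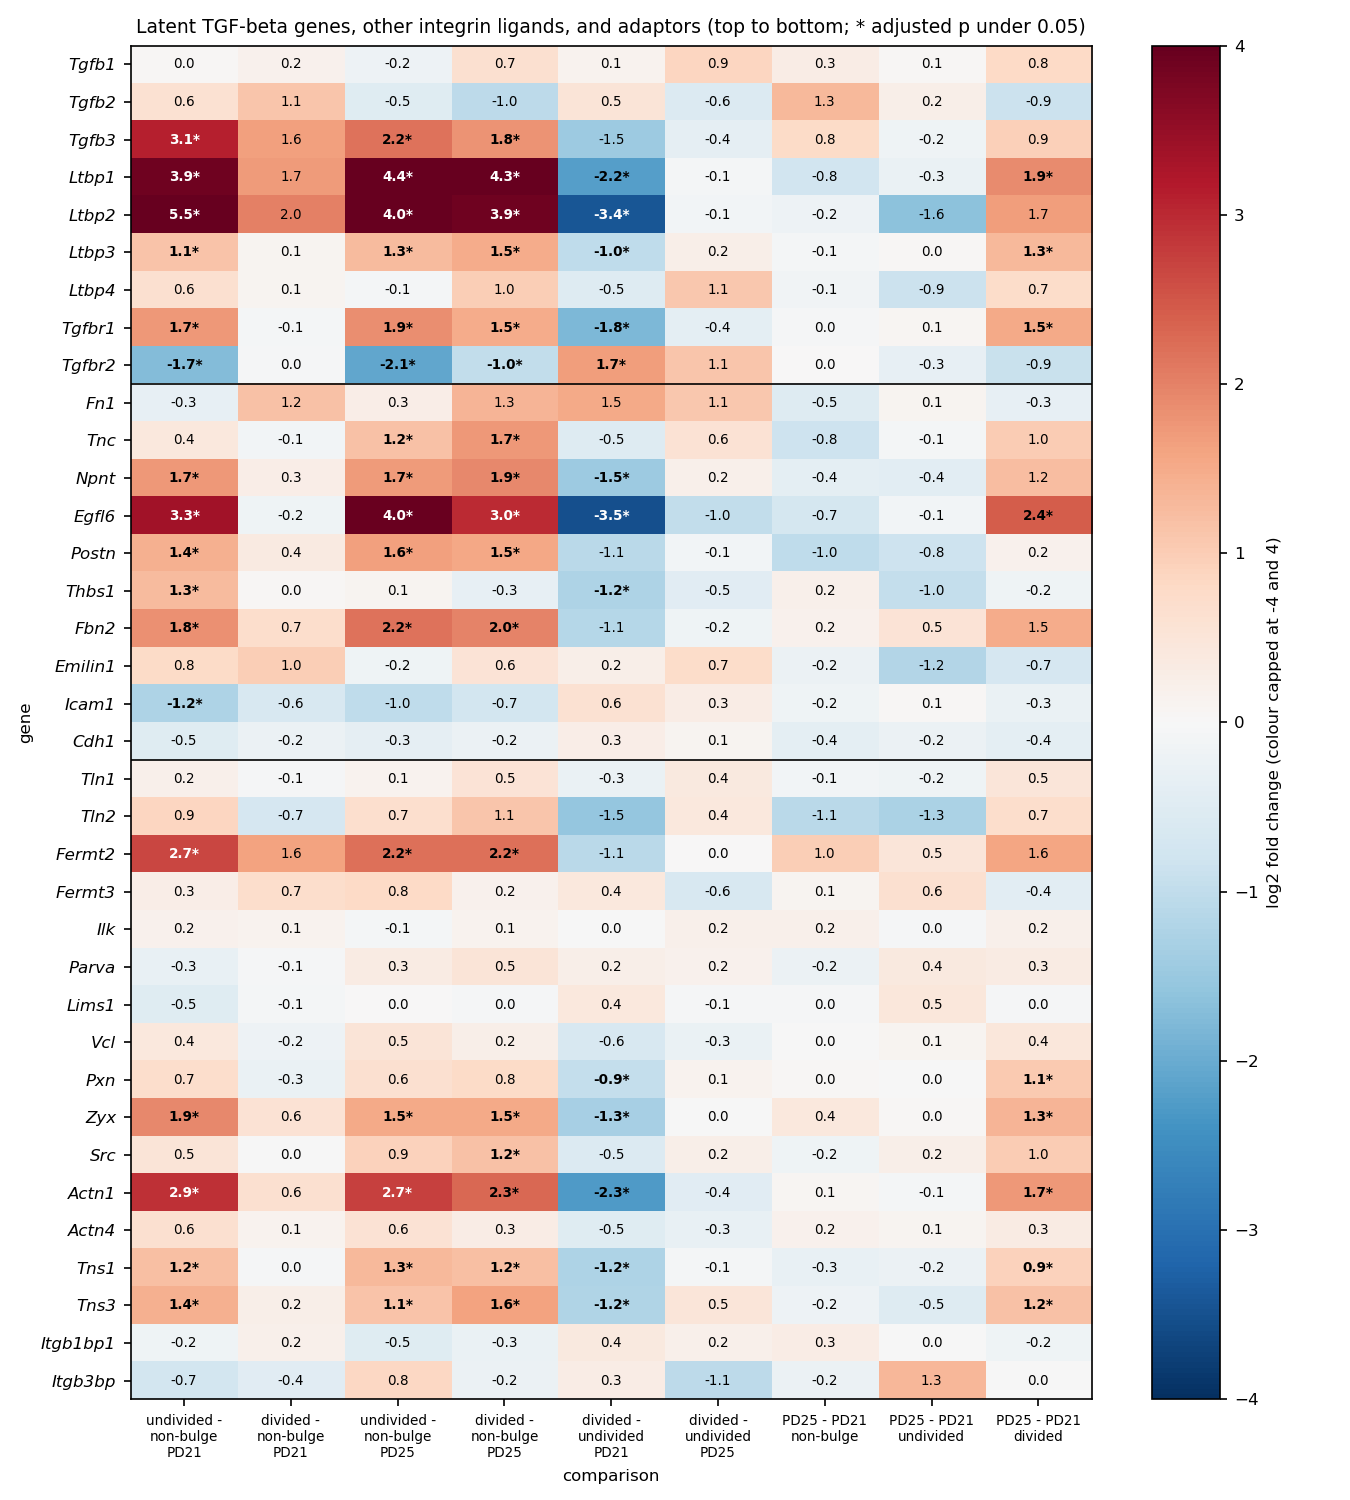
Log2 fold change (colour and number) of the tested genes of latent TGF-β and its receptors (top block), other integrin ligands (middle) and integrin activators and adaptors (bottom) in 9 comparisons. Asterisks mark limma adjusted p under 0.05. Ltbp1, Ltbp2, Egfl6, Actn1 and Npnt carry asterisks in the bulge against non-bulge columns other than that of the divided bulge at PD21, and Tgfbr2 has the opposite sign.

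Of 14 tested basement membrane partners, 2 were higher and 0 lower in the undivided bulge at PD21, beside 6.12% and 4.93% of all genes. Col4a4, a type IV collagen chain, had 4.52, 4.60 and 6.31 in non-bulge, 9.55, 8.95 and 9.77 in undivided bulge and 6.03, 5.39 and 7.96 in divided bulge cells, an undivided excess of 4.28 ± 0.62 (limma adjusted p = 2.92e-05). Its non-bulge signals of 6.9, 8.3 and 63.6 lay below the array medians, so the size of this difference depends on the 16 added. Agrn, a heparan sulphate proteoglycan that binds laminin, was higher by 1.08 ± 0.32. The common collagen IV chains Col4a1 and Col4a2 were at -0.88 ± 0.36 and -0.27 ± 0.33 and were not called. Ntn4, a laminin-related netrin, was lower in the undivided bulge at PD25 (-2.47 ± 0.36, adjusted p = 3.53e-05), with 9.06, 8.44 and 8.31 against 10.86, 11.13 and 11.21 in non-bulge. Of the 4 hemidesmosome partners Cd151, a tetraspanin that binds laminin receptors, was higher in the undivided bulge at PD21 (0.89 ± 0.26, adjusted p = 0.0259), and Plec, Dst and Col17a1 were not called.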

How the data were processed

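Expression was measured on 18 Affymetrix MOE 430 2.0 arrays, each from 5 ng of amplified RNA of 1 sorted fraction of 1 mouse. The deposited probe set signals are linear intensity values that the authors made with GCOS, per the submitters' processing notes; no version of it is given. Every deposited array had a 2% trimmed mean of 500, so no further normalisation was applied. Array medians lay between 60.3 and 116.6; the number of arrays limits the precision, and dim signals are noisy.

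Probe sets with 1 symbol (34945 of 45101) were used, and the brightest passing probe set stood for its gene. Group means were fitted with limma 3.58.1 in R 4.3.3 (lmFit, eBayes with trend, 12 residual and 11.2 prior degrees of freedom) on log2(signal + 16), with Benjamini-Hochberg adjustment over 11569 genes. The genes, gene lists and tests were chosen with earlier results of these data known. Named were Itgb8, Itgb6, Itga6, Lamb1, every member called and the brightest of each role group. Single examples from the partner lists, and the other dim members, were named after their values were seen. The changes of the undivided and of the divided bulge effect between the ages, and the fits by array set, were added after the data were seen.

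Fractions with the same mouse number within an age came from 1 mouse per the titles. The correlation of their deviations from the group means was 0.0745 to 0.462. The mouse as a block was an alternative, fixed within an age and random between the ages (consensus correlation 0.231). The other alternatives changed the pseudocount (1, 64), the filter, the scaling, the probe set rule, the variance trend and the groups fitted, or left out 1 array. Promoter sequences are from RefSeq. The scripts were tested on simulated data.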

Additional observations from a re-analysis of the deposited data

Results flagged for a closer look

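The difference between divided and undivided bulge cells changed between the ages by a test of that change for Itga1 (3.11), Itgb6 (2.39) and Lamb1 (2.34, all on the log2 scale), each being lower in divided cells at PD21 and not called at PD25. The difference between divided bulge and non-bulge cells also changed between the ages for Itga1 (3.30), from 0.43 ± 0.52 at PD21 to 3.74 ± 0.52 at PD25. Leaving out any of 8 single arrays ended the division effect call of Itga1, and likewise that of Itgb6. Any of 5 single arrays ended the call of Itga1 for divided bulge against non-bulge. Lamb1 lost its call with the mean of its probe sets (1.94, limma adjusted p = 0.0551). The mice of the ages were different animals, and the ages hold unequal numbers of arrays of each array set.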

How the results depend on the processing

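Over the 12 comparisons 28 values of member genes were called. All 28 kept their sign in each of 32 alternatives, 8 also kept their call in every one, and 20 lost it in at least 1. The mouse as a replicate block kept all 28 and added 9, and the array set as a block kept all 28 and added 6. The shares of all genes called under the alternatives are not given here. Within set A 19 of 28 were called and within set B 11, from fewer arrays. For the change of the division effect the count of 3 became 1 with a pseudocount of 1 and with the mean of a gene's probe sets, 0 within set A, 0 within set B, 4 under quantile normalisation (Itgb8 added, adjusted p = 0.049) or the mouse block, and 1 to 3 without 1 array. For the change of the divided bulge effect the count of 1 became 2 with a pseudocount of 64, with quantile normalisation, with every probe set on its own and with the array set as a block. It became 3 with the mean of a gene's probe sets and with the mouse as a block, 0 with only the groups compared, 0 within either set, and 0 to 2 without 1 array. The count of 5 for divided against undivided bulge at PD21 became 8 with the mouse as a block, 0 within set B and 4 to 6 without 1 array. The count for the undivided bulge against non-bulge became 2 within set B at PD21 (from 6; 5 to 7 without 1 array) and 2 within set A at PD25 (from 5; 4 to 6). For PD25 against PD21 in the divided bulge the count of 4 became 1 within set B. The divided bulge against non-bulge at PD25 (4) gave 4 to 5 without 1 array, 6 within set B and 3 within set A, where Itgb6 was 1.05 (adjusted p = 0.604). Itgb4 in divided against undivided bulge at PD21 lost its call in 9 alternatives and Lamb3 in the undivided bulge in 6. Where a call changed, the cause was not tested. The fits within a set rest on fewer arrays, and some differences there also changed in size. Lamb3 in the undivided bulge against non-bulge at PD21 was 0.88 with all arrays and 0.43 within set B.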
